A study of Caenorhabditis elegans with 18 samples.

Results

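The nas genes of Caenorhabditis elegans encode astacins, secreted zinc metalloproteases, and their RNA levels are described here in wild-type N2 and in hira-1(-) animals at the L4 larval stage and in adults. The members were all rows of the deposited gene tables whose gene name is nas- plus a number, 37 of 45461 rows. Of these 37 genes, 32 passed a filter on low counts and were tested, and the other 5 (nas-2, nas-10, nas-16, nas-18 and nas-40, which the annotation calls a pseudogene) had too few counts. A gene that is high in only 1 of the groups could pass that filter through that group alone. The astacin genes hch-1, dpy-31 and toh-1 carry other names and are given separately.

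Poly(A)-selected RNA was sequenced from whole worms, and 8 libraries were used, 2 in each of 4 groups. N2 is the standard wild-type strain, and hira-1(-) stands for the strain MT23643 with the allele hira-1(gk835598), which the series calls null, in the gene for the chaperone HIRA that places the histone variant H3.3 outside replication. Worms of both genotypes were kept at 20 °C on the same bacterial food. Since the labels do not state that the 2 libraries of a group were grown apart, a p-value here measures only the spread between these libraries, which may be technical. In whole-worm RNA, fewer cells of a type and less RNA per cell cannot be told apart.

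Astacins are made with a prodomain that keeps them inactive until it is cut off, and many of the nas proteins carry further domains after the protease that bind other proteins. In nematodes the family is known for work on the body surface: the cuticle, an extracellular matrix made mainly of collagens, is replaced at each larval molt, and some astacins are needed to shed the old cuticle, to build the grinder of the pharynx, to hatch from the egg or to trim procollagens. L4 is the last larval stage, so the adult has no further molt ahead of it, and many molting genes rise and fall once in each larval stage.

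Levels are compared between genes as FPKM, fragments per kilobase scaled to library size, which accounts for gene length. Among the nas genes in N2 at L4, nas-37 stood highest at 62.8 ± 6.48 FPKM (mean ± SD, n = 2), followed by nas-11 at 37.2 ± 1.02 and nas-15 at 34.5 ± 11.9, whose libraries overlapped those of nas-11. In hira-1(-) at L4 the order was the same, with nas-37 at 63.5 ± 2.07, nas-11 at 55.4 ± 0.629 and nas-15 at 25.5 ± 2.55 FPKM and no overlap between neighbours. The order in N2 adults began with nas-20 at 41.8 ± 0.226, nas-11 at 30.1 ± 3.42 and nas-37 at 15.1 ± 0.233 FPKM. In hira-1(-) adults it began with nas-11 at 55.4 ± 1.68 and nas-9 at 14.7 ± 0.665 FPKM, ahead of nas-37 at 12.3 ± 0.926 and nas-20 at 8.16 ± 0.778. So nas-20 held the first place in N2 adults and not in the mutant adults. Members with a group mean of at least 1 FPKM numbered 24 of 37 in N2 L4, 22 in hira-1(-) L4, 13 in N2 adults and 19 in hira-1(-) adults.

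**Figure D1:**
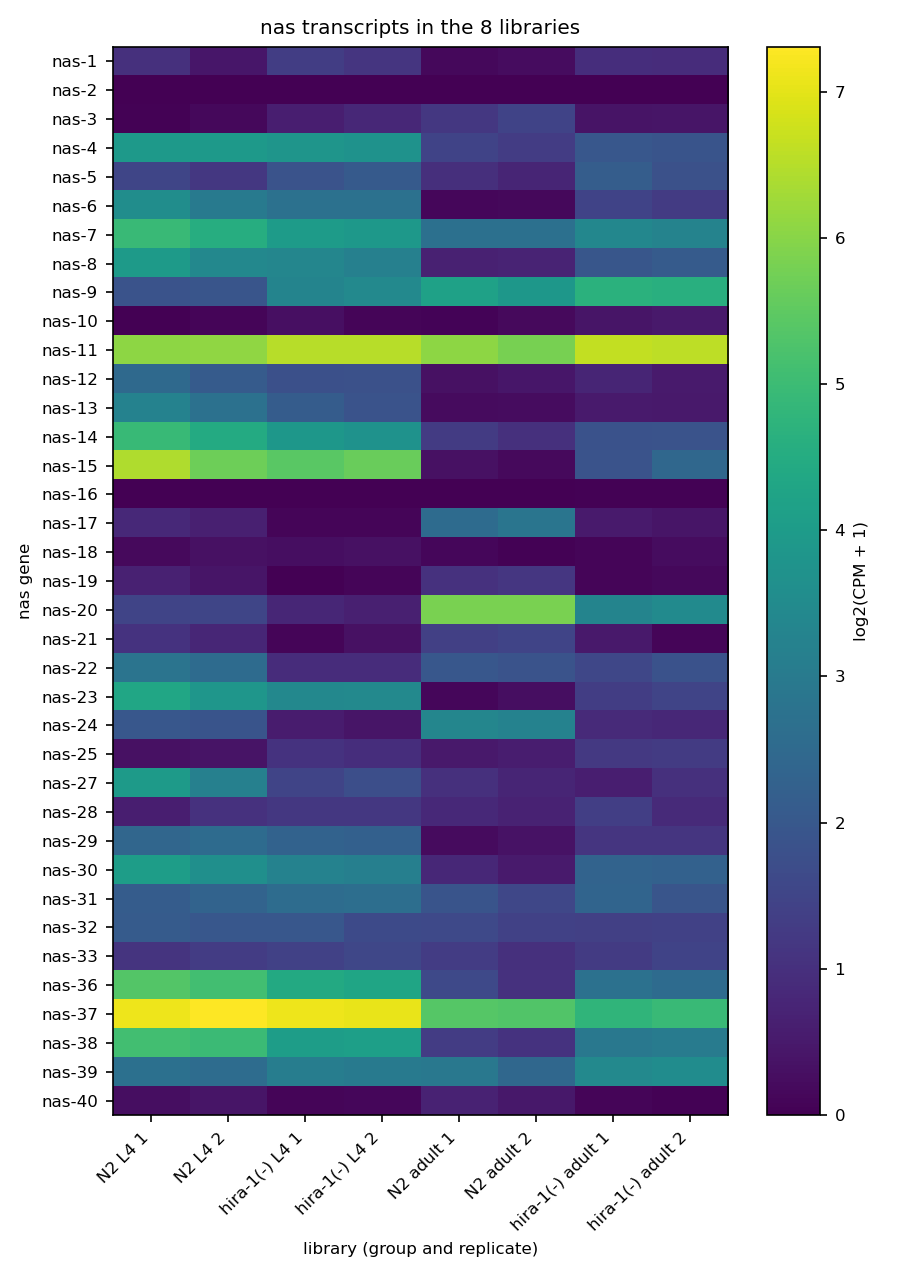
Heat map of all 37 nas genes (rows) in the 8 libraries (columns, by group and replicate), coloured by log2 of CPM plus 1 (counts scaled by library size). Most members stand lower in adults than at L4, while nas-20, nas-9 and nas-24 stand higher in N2 adults than in N2 L4, and nas-2 has no counts in any library.

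Within a gene, libraries are compared as CPM, counts scaled by library size between libraries with TMM factors. Differences are log2 changes. The standard error (SE) given with them is the size of the log2 change divided by the square root of the test's F value. It is thus back-calculated, and it is rough at low counts. A gene passed, and is called higher, lower, risen or fallen, where its Benjamini-Hochberg adjusted p was below 0.05. That p is from edgeR's quasi-likelihood test over all 16770 genes tested. At L4, 17 of the 32 tested nas genes were lower in hira-1(-) than in N2, 7 were higher and 8 did not pass. Over all genes tested at L4, 58.0% passed, 22.6% lower and 35.5% higher. The median log2 change was -0.62 over the nas genes and 0.10 over all genes. Without N2 L4 replicate 2 these medians were -1.002 (34 members) and 0.006. With limma they were -0.36 and 0.18, on log2 of FPKM plus 1, a scale that shrinks differences at low FPKM. In adults the split turned: 17 nas genes were higher in hira-1(-), 7 were lower and 8 did not pass, against 55.1% of all genes passing, 28.6% higher and 26.5% lower. The adult medians were 0.80 for the nas genes and 0.03 for all genes. Scaling by library totals moved the all-gene medians to 0.24 at both stages, and the nas medians were then -0.49 at L4 and 1.00 in adults. The share of higher genes among all calls was then 72.3% in place of 61.1% at L4 and 75.6% in place of 51.9% in adults, and the nas counts were 8 higher and 16 lower at L4 and 21 higher and 7 lower in adults.

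The genotype comparisons at L4 and in adults share no library, but they come from the same fit with pooled spread and joint scaling, so they are not independent. Of the 32 tested nas genes, 8 were lower in hira-1(-) at L4 and higher in hira-1(-) adults: nas-6, nas-7, nas-8, nas-14, nas-23, nas-30, nas-36 and nas-38. Over all genes tested, 5.17% had that pattern. A further 6 members (nas-1, nas-5, nas-9, nas-11, nas-25 and nas-39) were higher in the mutant at both stages, a pattern held by 12.7% of all genes. Another 5 members (nas-17, nas-19, nas-20, nas-21 and nas-24) were lower at both stages, against 9.49% of all genes. Of these, nas-19 entered the test through N2 adults, where it is highest. nas-17 and nas-21 entered it through N2 groups, since neither mutant group had at least 10 counts in both libraries. The 1 member higher at L4 and lower in adults was nas-3, a pattern held by 8.12% of all genes. The 5 markers of body wall muscle (unc-54, myo-3, unc-15, unc-22 and lev-11) summed to 10839.3 and 7325.7 CPM in N2 L4, 4347.3 and 5260.7 in hira-1(-) L4, 2027.1 and 1848.7 in N2 adults and 2368.6 and 2685.8 in hira-1(-) adults. Of the 5, 4 were lower in the mutant at L4, and 3 were higher and 1 lower in adults. None was at 0, and their part in the nas results was not tested.

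**Figure D2:**
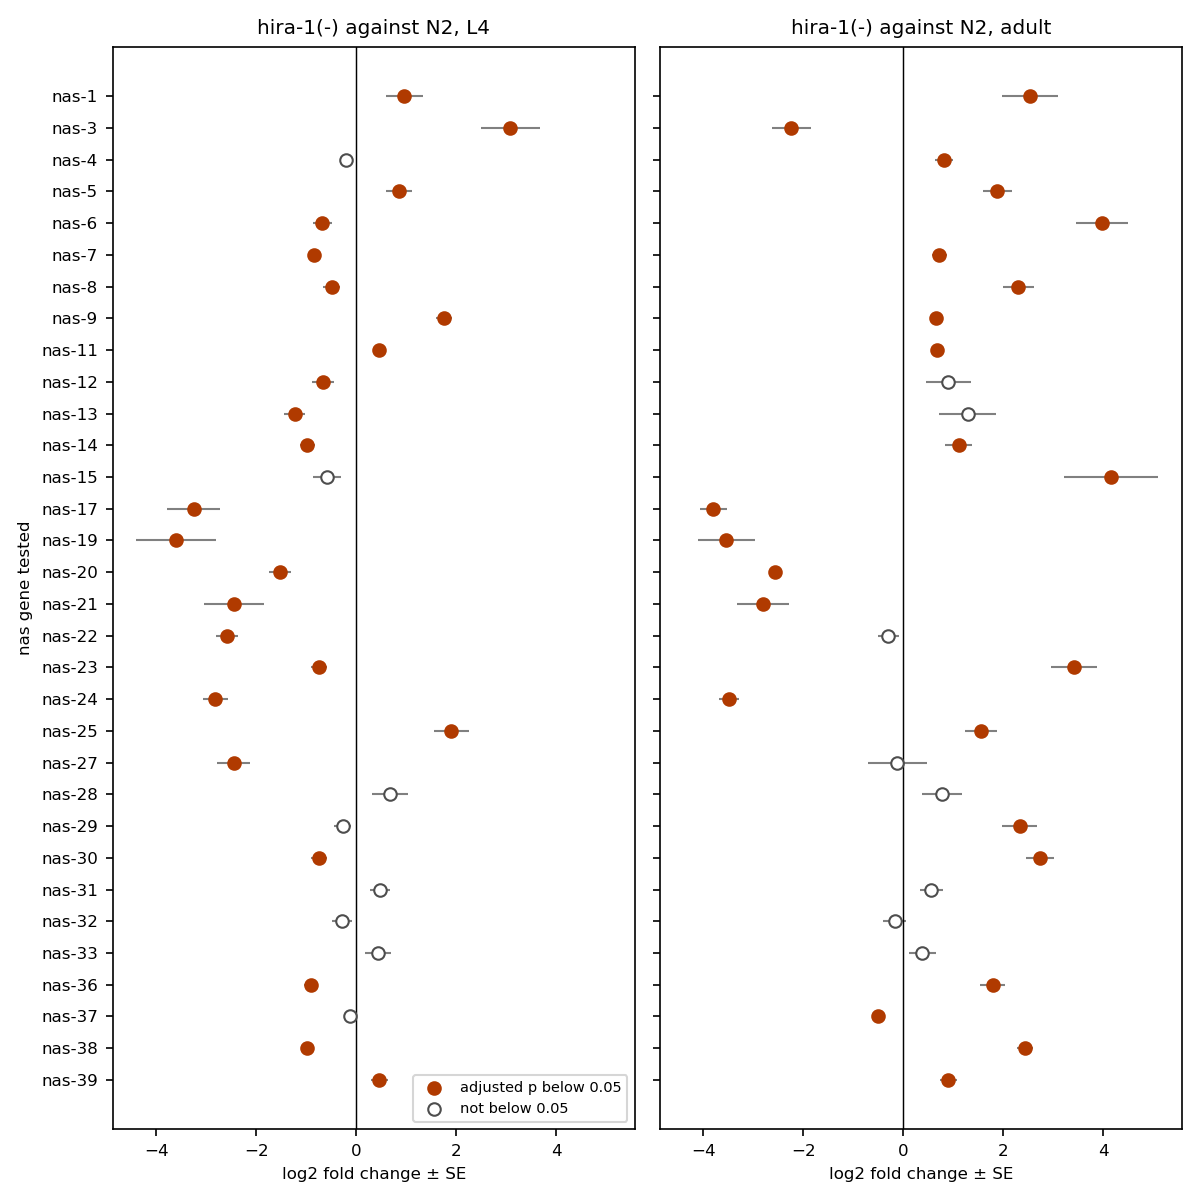
Log2 change of hira-1(-) against N2 (x axis) for the 32 tested nas genes (rows), at L4 and in adults, with bars of 1 standard error. Points for nas-6, nas-23, nas-36 and nas-38 lie below 0 at L4 and above 0 in adults, and those of nas-17, nas-19, nas-20, nas-21 and nas-24 lie below 0 at both stages.

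The members with known work in molting were nas-36, nas-37 and nas-38. Loss of nas-36 or nas-37 leaves worms caught in the old cuticle, and nas-38 acts in the sleep that goes with each molt. nas-36 stood at 39.5 and 33.3 CPM in N2 L4, 20.5 and 18.6 in hira-1(-) L4, 2.05 and 1.04 in N2 adults and 5.64 and 4.82 in hira-1(-) adults. The mutant libraries were thus the lower ones at L4 and the higher ones in adults, with no overlap at either stage. The L4 difference was -0.90 (SE 0.15, adjusted p = 3.5e-04), and the adult difference was 1.79 (SE 0.25, adjusted p = 1.4e-04).

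nas-38 had the same shape, at 32.9 and 30.6 CPM in N2 L4, 15.7 and 16.4 in hira-1(-) L4, 1.46 and 1.11 in N2 adults and 6.57 and 7.20 in hira-1(-) adults. Again the genotypes did not overlap, with the mutant lower at L4 and higher in adults. Its log2 change was -0.98 (SE 0.10, adjusted p = 2.3e-06) at L4 and 2.43 (SE 0.16, adjusted p = 6.9e-08) in adults. In fold terms, nas-38 was 1.97-fold lower in hira-1(-) at L4 and 5.38-fold higher in hira-1(-) adults. The 5 markers of the hypodermis (dpy-7, rol-6, sqt-3, wrt-2 and elt-3), the tissue that makes the cuticle, summed to 2785.1 and 2976.8 CPM in N2 L4, 1496.7 and 1546.1 in hira-1(-) L4, 39.4 and 39.04 in N2 adults and 116.6 and 123.8 in hira-1(-) adults. Of the 5, 2 (rol-6 and sqt-3) were lower and 1 (elt-3, at 0.58, adjusted p = 0.00106) higher in the mutant at L4. In adults 4 of the 5 were higher, and elt-3 did not pass (-0.19, adjusted p = 0.17). From L4 to adult in N2, elt-3 rose (0.86) while the other 4 fell. At L4 sqt-3 made up most of the sum, at means of 2225.02 CPM in N2 and 1007.7 in the mutant. The sum therefore does not measure the amount of hypodermis. None of the 5 markers was at 0, and their part in the nas-36 and nas-38 results was not tested.

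nas-37 differed from these 2 genes. It stood at 138 and 157 CPM in N2 L4, 139 and 132 in hira-1(-) L4, 40.3 and 39.1 in N2 adults and 26.2 and 29.7 in hira-1(-) adults. The L4 libraries of the genotypes overlapped, and the adult mutant libraries lay below both N2 adult libraries. The L4 difference was -0.12 (SE 0.07, adjusted p = 0.138), and it turned positive with library totals (0.01) and with limma on the deposited FPKM values (0.02). It passed without N2 L4 replicate 1 at -0.33 (adjusted p = 2.8e-04) and without N2 adult replicate 1 at -0.23 (adjusted p = 0.0196), and also with no filter on low counts (-0.15, adjusted p = 0.0436) and with only the L4 groups in the fit (-0.22, adjusted p = 0.0326). In adults the difference was -0.51 (SE 0.08, adjusted p = 1.8e-04).

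**Figure D3:**
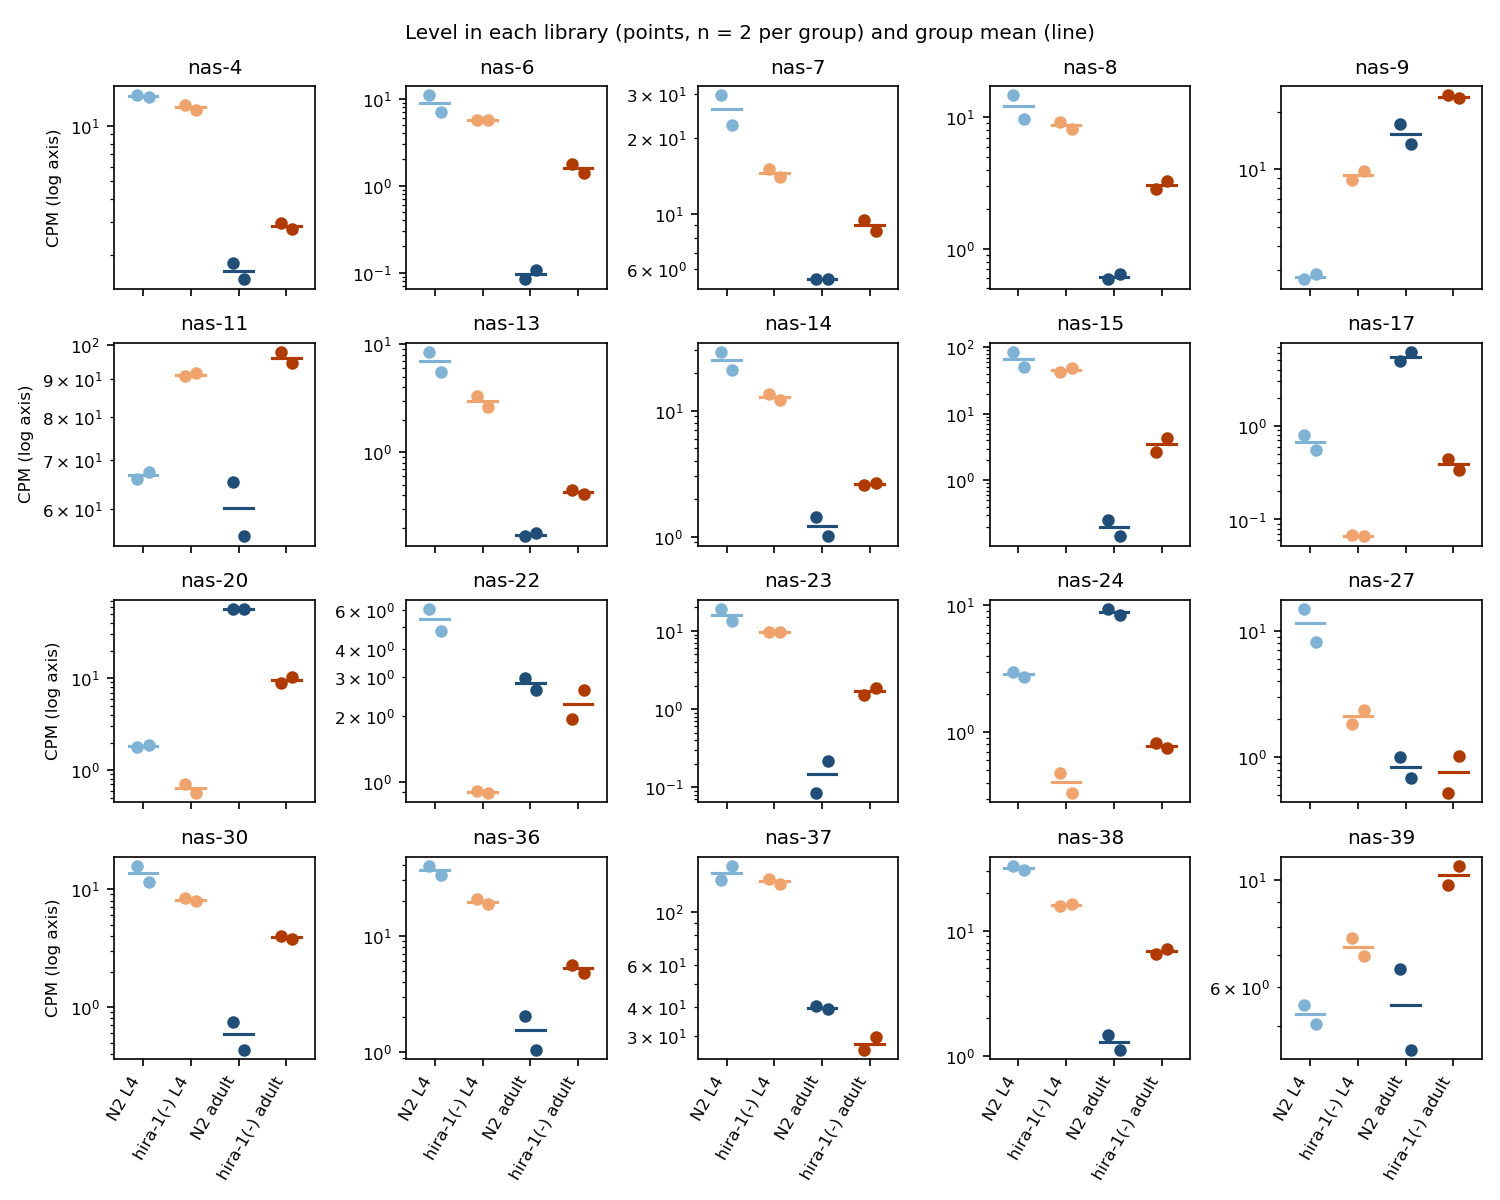
CPM on a log axis in each of the 8 libraries for the 20 nas genes named by the rule for values in every library. There is 1 panel per gene with points by group, and nas-3 and nas-21 are not shown. The N2 adult points of nas-20 (56.6 and 56.6 CPM) lie together, and the N2 L4 points of nas-15 (85.0 and 50.6 CPM) and nas-27 (14.8 and 8.12 CPM) lie apart.

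The grinder, the cuticle-lined mill of the pharynx that crushes bacteria, needs nas-6 and nas-7. nas-6 stood at 10.9 and 7.02 CPM in N2 L4, 5.62 and 5.65 in hira-1(-) L4, 0.0835 and 0.108 in N2 adults and 1.78 and 1.39 in hira-1(-) adults. N2 adults were near 0, at about the level of 3 counts per library (0.108 to 0.125 CPM), and mutant adults were above them in both libraries. The adult difference was 3.98 (SE 0.52, adjusted p = 3.5e-05). At L4 both mutant libraries were below N2, with a log2 change of -0.67 (SE 0.19, adjusted p = 0.00834). That L4 call was lost without N2 L4 replicate 1, at -0.43 (adjusted p = 0.0516), and without either mutant L4 library, at -0.67 (adjusted p = 0.0523) without replicate 1 and -0.68 (adjusted p = 0.0514) without replicate 2.

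nas-7 stood at 29.7 and 22.6 CPM in N2 L4, 15.2 and 13.97 in hira-1(-) L4, 5.47 and 5.49 in N2 adults and 9.46 and 8.56 in hira-1(-) adults. The mutant was lower in both L4 libraries and higher in both adult libraries, with no overlap. The differences were -0.85 (SE 0.12, adjusted p = 6.6e-05) at L4 and 0.72 (SE 0.15, adjusted p = 0.00143) in adults. The 5 pharynx markers myo-1, myo-2, tnt-4, tni-4 and marg-1, none of them at 0, summed to 403.4 and 241.1 CPM in N2 L4, 230.4 and 254.4 in hira-1(-) L4, 111.2 and 95.2 in N2 adults and 143.7 and 153.7 in hira-1(-) adults. At each stage 1 of the 5 was higher in the mutant, 1 was lower and 3 did not pass. Their part in the results for nas-6 and nas-7 was not tested.

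Both grinder genes belong to astacin subgroup II (nas-6 to nas-15), whose members carry a ShK-type toxin-like domain after the protease. Of its 9 tested members, 6 were lower and 2 higher in hira-1(-) at L4, and 7 were higher and none lower in hira-1(-) adults. As shares, 66.7% of them were lower at L4 (22.6% of all genes) and 77.8% higher in adults (28.6% of all genes). The adult exceptions were nas-12 and nas-13, at 0.90 (adjusted p = 0.104) and 1.29 (adjusted p = 0.0761), and the latter passed without N2 L4 replicate 1 at 1.25 (adjusted p = 0.0422) and without N2 L4 replicate 2 at 1.25 (adjusted p = 0.0405). With library totals both passed, nas-12 at 1.10 (adjusted p = 0.0453) and nas-13 at 1.49 (adjusted p = 0.0356), and nas-13 also passed with only the adult groups in the fit (1.29, adjusted p = 0.0493) and with the replicate block (1.27, adjusted p = 0.0389).

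nas-8 stood at 14.8 and 9.67 CPM in N2 L4, 9.27 and 8.16 in hira-1(-) L4, 0.585 and 0.646 in N2 adults and 2.86 and 3.28 in hira-1(-) adults. In adults the mutant libraries were several times above N2 (log2 change 2.30, SE 0.32, adjusted p = 6.5e-05), while at L4 N2 replicate 2 lay close to the mutant libraries (log2 change -0.49, SE 0.18, adjusted p = 0.0303). The L4 call was lost without N2 L4 replicate 1, at -0.27 (adjusted p = 0.167), without mutant L4 replicate 1, at -0.58 (adjusted p = 0.0599), and without mutant L4 replicate 2, at -0.40 (adjusted p = 0.178). It was also lost with DESeq2 (-0.50, adjusted p = 0.0879), library totals (-0.35, adjusted p = 0.0866) and limma on FPKM (-0.28, adjusted p = 0.174).

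nas-14 stood at 29.1 and 21.1 CPM in N2 L4, 13.5 and 12.1 in hira-1(-) L4, 1.42 and 1.00 in N2 adults and 2.56 and 2.64 in hira-1(-) adults. Its mutant libraries were the lower ones at L4 and the higher ones in adults, with a log2 change of -0.97 (SE 0.14, adjusted p = 1.0e-04) and of 1.11 (SE 0.27, adjusted p = 0.00409). The adult call was lost without N2 adult replicate 2, at 0.87 (adjusted p = 0.06). nas-13 stood at 8.46 and 5.55 CPM in N2 L4, 3.35 and 2.64 in hira-1(-) L4, 0.167 and 0.179 in N2 adults and 0.445 and 0.415 in hira-1(-) adults. The mutant was below N2 at L4 (log2 change -1.23, SE 0.21, adjusted p = 2.5e-04), and in adults all 4 libraries were under 1 CPM.

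nas-15 varied between replicates, at 85.00 and 50.6 CPM in N2 L4, 42.02 and 48.4 in hira-1(-) L4, 0.251 and 0.144 in N2 adults and 2.67 and 4.37 in hira-1(-) adults. The L4 mutant libraries lay below both N2 libraries but close to N2 replicate 2, and the difference did not pass (log2 change -0.59, SE 0.28, adjusted p = 0.14), although it did without N2 L4 replicate 2, at -1.01 (adjusted p = 3.0e-05). Mutant adults stood above N2 adults, where the gene had at most 0.251 CPM, with a log2 change of 4.16 (SE 0.95, adjusted p = 0.0164). This adult call was lost without N2 adult replicate 1, at 4.52 (adjusted p = 0.0779), without N2 adult replicate 2, at 3.78 (adjusted p = 0.103), and without mutant adult replicate 2, at 3.76 (adjusted p = 0.0584).

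The 2 members of subgroup II that were higher in the mutant at both stages were nas-9 and nas-11. nas-9 stood at 2.67 and 2.83 CPM in N2 L4, 8.83 and 9.81 in hira-1(-) L4, 17.2 and 13.5 in N2 adults and 24.4 and 23.5 in hira-1(-) adults. At each stage the mutant libraries exceeded both N2 libraries, with a log2 change of 1.76 (SE 0.15, adjusted p = 6.0e-07) at L4 and of 0.65 (SE 0.12, adjusted p = 4.5e-04) in adults. nas-11 stood at 66.02 and 67.3 CPM in N2 L4, 90.7 and 91.6 in hira-1(-) L4, 65.4 and 55.1 in N2 adults and 97.9 and 94.5 in hira-1(-) adults. The mutant was again above N2 in every library of its stage, with a log2 change of 0.45 (SE 0.07, adjusted p = 7.5e-05) at L4 and of 0.68 (SE 0.07, adjusted p = 3.3e-06) in adults. nas-12, at 2.44 to 4.61 CPM at L4, fell in the mutant there (log2 change -0.66, SE 0.22, adjusted p = 0.0188), a call lost without N2 L4 replicate 1 at -0.51 (adjusted p = 0.104), without mutant L4 replicate 1 at -0.63 (adjusted p = 0.0992), without mutant L4 replicate 2 at -0.70 (adjusted p = 0.0775) and with DESeq2 (-0.68, adjusted p = 0.162).

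Subgroup I comprises nas-1 to nas-5. Of its 4 tested members, 3 were higher in the mutant and none lower at L4, and 3 were higher and 1 lower in adults, where 35.5% of all genes were higher at L4 and 28.6% in adults. nas-4, its most abundant member at L4, stood at 14.6 and 14.4 CPM in N2 L4, 12.99 and 12.2 in hira-1(-) L4, 1.80 and 1.47 in N2 adults and 2.97 and 2.75 in hira-1(-) adults. The mutant libraries were slightly below N2 at L4 without passing (log2 change -0.20, SE 0.11, adjusted p = 0.13) and above N2 in adults (log2 change 0.81, SE 0.18, adjusted p = 0.00174). The L4 difference passed without N2 adult replicate 1, at -0.31 (adjusted p = 0.0233), and with only the L4 groups in the fit (-0.30, adjusted p = 0.0244).

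The other members of subgroup I were scarce. nas-1, at 0.125 to 1.52 CPM, was higher in hira-1(-) adults (log2 change 2.54, SE 0.56, adjusted p = 0.00197) and at L4 (log2 change 0.97, SE 0.38, adjusted p = 0.0427). Its L4 call was lost under each omission of a library except that of N2 L4 replicate 1, which moved it to 1.75 (adjusted p = 0.00349), and was at 0.32 (adjusted p = 0.492) without N2 L4 replicate 2, 0.78 (adjusted p = 0.213) without mutant L4 replicate 1 and 1.13 (adjusted p = 0.0664) without mutant L4 replicate 2. Omitting an adult library left adjusted p-values of 0.0765 and 0.0535 for N2 and 0.0552 and 0.0551 for the mutant, DESeq2 gave 0.96 (adjusted p = 0.223), and the L4 groups alone gave 0.87 (adjusted p = 0.104). nas-5, at 0.682 to 3.49 CPM, was higher with a log2 change of 0.86 (SE 0.25, adjusted p = 0.0103) at L4 and of 1.88 (SE 0.29, adjusted p = 1.3e-04) in adults, and its L4 call was lost without N2 L4 replicate 2 at 0.50 (adjusted p = 0.136), without mutant L4 replicate 2 at 0.72 (adjusted p = 0.0898) and with DESeq2 (0.85, adjusted p = 0.0669).

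nas-3 was higher in hira-1(-) at L4 and lower in hira-1(-) adults. Its level was 0.0360 and 0.110 CPM in N2 L4, 0.541 and 0.760 in hira-1(-) L4, 1.25 and 1.76 in N2 adults and 0.297 and 0.339 in hira-1(-) adults. N2 was the lower genotype at L4 and the higher one in adults. The differences were 3.08 (SE 0.59, adjusted p = 6.2e-04) at L4 and -2.24 (SE 0.39, adjusted p = 3.6e-04) in adults. Without N2 L4 replicate 1 the L4 value was 2.40 (adjusted p = 0.00868), and without N2 L4 replicate 2 it was 3.92 (adjusted p = 0.00115). nas-2 had 0 counts in all 8 libraries.

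Subgroup III (nas-16 to nas-30, where no row is named nas-26) carries EGF-like and CUB domains, which bind other proteins. Astacin genes under other names are not counted in it here. Of its 12 tested members, 9 were lower and 1 was higher in the mutant at L4, and 5 were lower and 4 higher in adults. The lower share was 75.0% at L4 (22.6% of all genes) and 41.7% in adults (26.5% of all genes), and the adult higher share of 33.3% was near the 28.6% of all genes. nas-20, a gene of chromosome V, stood at 1.80 and 1.87 CPM in N2 L4, 0.710 and 0.562 in hira-1(-) L4, 56.6 and 56.6 in N2 adults and 8.83 and 10.3 in hira-1(-) adults. N2 adults were far above every other library, and the mutant was below N2 at both stages with no overlap. The log2 change was -1.53 (SE 0.22, adjusted p = 5.6e-05) at L4 and -2.57 (SE 0.10, adjusted p = 4.7e-10) in adults, the latter a 5.92-fold lower level.

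nas-24, also on chromosome V, stood at 2.99 and 2.72 CPM in N2 L4, 0.474 and 0.330 in hira-1(-) L4, 9.31 and 8.36 in N2 adults and 0.816 and 0.754 in hira-1(-) adults. Every mutant library was under 1 CPM and every N2 library was above 2 CPM. The differences were -2.82 (SE 0.25, adjusted p = 8.3e-07) at L4 and -3.48 (SE 0.20, adjusted p = 1.8e-08) in adults. nas-17 stood at 0.792 and 0.551 CPM in N2 L4, 0.0677 and 0.0661 in hira-1(-) L4, 4.89 and 6.14 in N2 adults and 0.445 and 0.339 in hira-1(-) adults. Its mutant libraries were below N2 at each stage, with a log2 change of -3.25 (SE 0.53, adjusted p = 1.8e-04) and of -3.80 (SE 0.27, adjusted p = 1.5e-07), and the 2 mutant L4 libraries lay under the level of 3 counts.

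nas-19, next to nas-17 on the chromosome, had 25 counts over both N2 L4 libraries and 2 over both mutant L4 libraries, an N2 to hira-1(-) ratio of 13.6 with an exact 95% interval of 3.39 to 119 that covers counting error only. In adults it stood at 1.04 and 1.22 CPM in N2 and at 0.0742 and 0.113 CPM in the mutant (log2 change -3.54, SE 0.57, adjusted p = 1.9e-04). nas-21 stood at 1.12 and 0.735 CPM in N2 L4, 0.0677 and 0.264 in hira-1(-) L4, 1.63 and 1.83 in N2 adults and 0.408 and 0.0754 in hira-1(-) adults. The mutant was below N2 at both stages, with a log2 change of -2.44 (SE 0.59, adjusted p = 0.00354) and of -2.81 (SE 0.52, adjusted p = 5.8e-04). Its L4 value was -1.79 (adjusted p = 0.0398) without mutant replicate 1 and -3.69 (adjusted p = 0.005) without mutant replicate 2, and its adult value was -4.44 (adjusted p = 5.0e-04) and -2.08 (adjusted p = 0.00607) without these replicates of the mutant adults. The L4 value of nas-19 was -2.70 without mutant L4 replicate 1, and without replicate 2 the mutant L4 group had 0 counts.

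nas-22, which lies beside nas-21, stood at 6.05 and 4.82 CPM in N2 L4, 0.913 and 0.892 in hira-1(-) L4, 2.96 and 2.62 in N2 adults and 1.93 and 2.60 in hira-1(-) adults. At L4 the mutant was far below N2 (log2 change -2.58, SE 0.22, adjusted p = 6.5e-07), while the adult libraries lay close together (log2 change -0.30, SE 0.21, adjusted p = 0.257). A protein-coding gene of the same strand, T11F9.7, overlaps nas-22 in assembly WBcel235 and had log2 changes of -2.90 at L4 and 0.26 in adults, so reads of the pair may be divided between them.

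**Figure D4:**
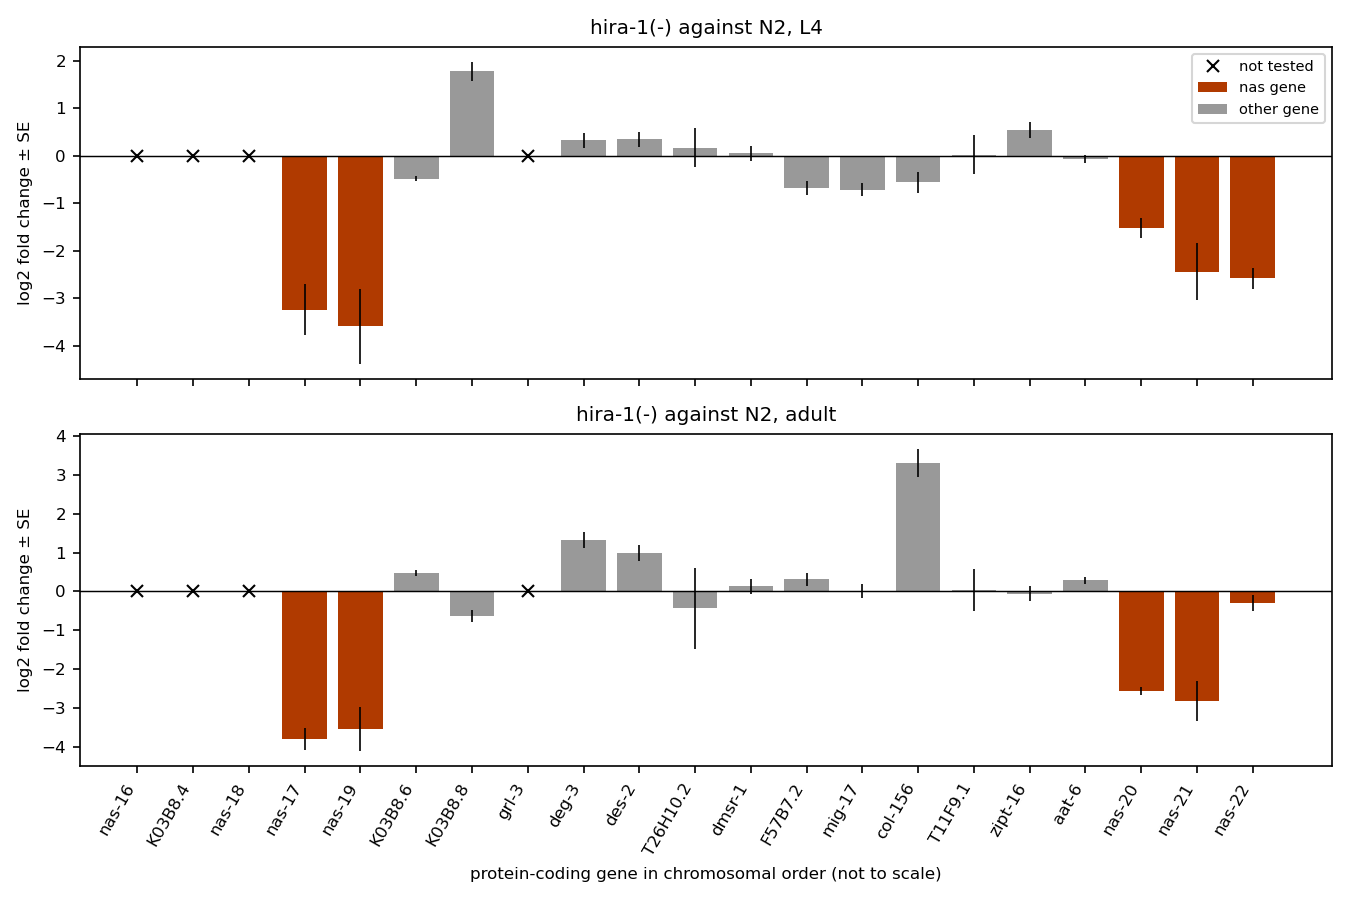
Log2 change of hira-1(-) against N2 (y axis) for the genes from nas-16 to nas-22 in their order along chromosome V (x axis, order only), at L4 and in adults, with nas genes marked apart from the other protein-coding genes. The tested nas genes lie below 0 at L4, while the genes between them lie on both sides of 0.

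Chromosome V holds 14 of the 37 members, 10 of them tested. Of these 10, 6 were lower and 2 higher in hira-1(-) at L4, and 6 were lower and 1 higher in hira-1(-) adults. Over all genes tested, 22.6% were lower and 35.5% higher at L4, and 26.5% lower and 28.6% higher in adults. In adults the 1 nas gene that fell outside chromosome V was nas-37 on chromosome X. In the order of assembly WBcel235, nas-18, nas-17 and nas-19 are neighbours, and so are nas-20, nas-21 and nas-22. Between nas-16 and nas-22 lie 14 protein-coding genes that are not astacins. The genotype comparison at L4 had 2 of these 14 higher, 3 lower, 7 not past the threshold and 2 not tested, and in adults 5 were higher, 1 lower, 6 did not pass and 2 were not tested. All 5 tested nas genes of the stretch were lower at L4, and 4 of the 5 were lower in adults, nas-22 being the exception. The 5 include nas-19, which entered the test through N2 adults, and nas-17 and nas-21, which entered it through N2 groups. The next gene after nas-22, the overlapping T11F9.7, is not among the 14 and was lower at L4 (log2 change -2.90, adjusted p = 9.7e-04) without passing in adults.

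None of the tested subgroup III genes on other chromosomes was lower in mutant adults. nas-23 on chromosome II stood at 19.1 and 13.4 CPM in N2 L4, 9.64 and 9.81 in hira-1(-) L4, 0.0835 and 0.215 in N2 adults and 1.52 and 1.85 in hira-1(-) adults. The mutant was below N2 at L4 and above it in adults, with a log2 change of -0.74 (SE 0.16, adjusted p = 0.00169) and of 3.41 (SE 0.46, adjusted p = 5.2e-05), and the adult value was 4.26 (adjusted p = 9.6e-04) without N2 adult replicate 2. nas-30 on chromosome I stood at 15.7 and 11.4 CPM in N2 L4, 8.36 and 7.86 in hira-1(-) L4, 0.752 and 0.431 in N2 adults and 4.01 and 3.81 in hira-1(-) adults. Its genotypes did not overlap and were ordered as for nas-23, with a log2 change of -0.74 (SE 0.16, adjusted p = 0.00138) at L4 and 2.74 (SE 0.28, adjusted p = 4.2e-06) in adults.

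nas-27 on chromosome II stood at 14.8 and 8.12 CPM in N2 L4, 1.83 and 2.38 in hira-1(-) L4, 1.00 and 0.682 in N2 adults and 0.519 and 1.02 in hira-1(-) adults. N2 at L4 was above the mutant in both libraries (log2 change -2.45, SE 0.33, adjusted p = 2.9e-04), and the adult libraries of the genotypes overlapped (log2 change -0.12, SE 0.59, adjusted p = 0.882). nas-29, at 3.73 to 4.82 CPM at L4, did not pass there (log2 change -0.27, SE 0.17, adjusted p = 0.189) and was higher in mutant adults (log2 change 2.33, SE 0.34, adjusted p = 9.6e-05). nas-25, under 1.5 CPM throughout, was higher at both stages (1.91 with adjusted p = 5.2e-04 at L4, 1.55 with adjusted p = 0.00117 in adults). nas-28, also under 2 CPM, passed at neither stage (0.68 with adjusted p = 0.131 at L4, 0.78 with adjusted p = 0.112 in adults), but did at L4 without N2 L4 replicate 2, at 1.14 (adjusted p = 0.0392), and in adults without mutant adult replicate 2, at 1.15 (adjusted p = 0.0369), and with library totals (0.98, adjusted p = 0.0446).

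The last groups are small. nas-39 is the family's BMP-1 and tolloid-like member, with repeated CUB domains, and stood at 5.51 and 5.04 CPM in N2 L4, 7.58 and 6.97 in hira-1(-) L4, 6.56 and 4.45 in N2 adults and 9.75 and 10.7 in hira-1(-) adults. The mutant libraries were above N2 at each stage without overlap, with a log2 change of 0.46 (SE 0.17, adjusted p = 0.0293) at L4 and 0.90 (SE 0.16, adjusted p = 4.9e-04) in adults. The L4 call was lost without each L4 library in turn, at 0.41 (adjusted p = 0.0722) without N2 replicate 1, 0.30 (adjusted p = 0.191) without N2 replicate 2, 0.40 (adjusted p = 0.151) without mutant replicate 1 and 0.52 (adjusted p = 0.0663) without mutant replicate 2, and with DESeq2 (0.45, adjusted p = 0.0934).

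nas-31, nas-32 and nas-33 passed in neither genotype comparison. nas-31, at 1.94 to 5.25 CPM, was near the threshold at both stages, with log2 changes of 0.49 (SE 0.20, adjusted p = 0.0535) at L4 and 0.56 (SE 0.23, adjusted p = 0.0529) in adults. Its L4 difference passed without N2 adult replicate 2, at 0.48 (adjusted p = 0.0464), mutant adult replicate 1, at 0.48 (adjusted p = 0.0406), and mutant adult replicate 2, at 0.48 (adjusted p = 0.0396). Its adult difference passed without N2 L4 replicate 1, at 0.53 (adjusted p = 0.0396), N2 L4 replicate 2, at 0.53 (adjusted p = 0.0382), N2 adult replicate 1, at 0.77 (adjusted p = 0.0366), and mutant adult replicate 2, at 0.81 (adjusted p = 0.0185). Both passed with library totals (0.62, adjusted p = 0.0144 at L4, and 0.77, adjusted p = 0.0101 in adults) and limma on FPKM (0.47, adjusted p = 0.0236, and 0.48, adjusted p = 0.0244), and the adult one with no filter (0.56, adjusted p = 0.041). nas-32 was at -0.28 at L4 (adjusted p = 0.256) and -0.18 in adults (adjusted p = 0.554), the latter turning positive with library totals (0.03) and with limma on FPKM (0.01). nas-33 was at 0.45 (adjusted p = 0.158) and 0.38 (adjusted p = 0.259).

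Among the members with too few counts for a test, nas-16 had 1 count in each mutant adult library and 0 elsewhere. nas-40 had 26 counts over both N2 adult libraries and 3 over both mutant adult libraries, an N2 to hira-1(-) ratio of 8.95 (exact 95% interval 2.74 to 46.2). nas-10 and nas-18 stayed at or below 0.415 CPM in every library.

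From L4 to adult, 20 of the 32 tested members fell in N2, 6 rose and 6 did not pass, where 81.6% of all genes passed, 43.4% lower and 38.2% higher. In hira-1(-) 18 fell, 6 rose and 8 did not pass, where 74.4% of all genes passed, 38.4% lower and 36% higher. The median log2 change from L4 to adult was -1.43 for nas genes in N2 and -0.67 in hira-1(-), against -0.15 and -0.08 over all genes. The N2 median of the nas genes moved to -0.80 without N2 adult replicate 2 and to -0.87 without N2 L4 replicate 1, where the mutant medians were -0.61 and -0.62 and 34 members passed the filter. With DESeq2, over 36 members, it was -0.86 in N2 and -0.57 in the mutant. With limma it was -0.69 and -0.43, on the log2 scale of FPKM plus 1. These comparisons use the same libraries as the genotype comparisons, so the values are set side by side without a count of agreement. nas-38 had a log2 change of -4.63 (SE 0.14, adjusted p = 2.9e-12) in N2 and of -1.23 (SE 0.11, adjusted p = 2.7e-07) in hira-1(-). nas-6 changed by -6.48 (adjusted p = 2.4e-09) in N2 and by -1.82 (adjusted p = 1.1e-05) in the mutant. Both genes fell in each genotype, and further in N2. nas-20, in the opposite direction, had a log2 change of 4.94 (SE 0.12, adjusted p = 5.0e-13) in N2 and of 3.90 (SE 0.17, adjusted p = 1.8e-10) in the mutant. Abundant nas-11 passed in neither genotype, at -0.15 (adjusted p = 0.062) in N2 and 0.08 (adjusted p = 0.305) in the mutant, where the sign turned with library totals (-0.02) and with limma on FPKM (-0.0022). The N2 value of nas-11 passed without N2 L4 replicate 1 at -0.26 (adjusted p = 0.00518), without N2 L4 replicate 2 at -0.21 (adjusted p = 0.0181) and without N2 adult replicate 1 at -0.34 (adjusted p = 4.3e-04). It also passed with library totals (-0.31, adjusted p = 6.9e-04), no filter on low counts (-0.19, adjusted p = 0.0107) and limma on FPKM (-0.30, adjusted p = 0.00404).

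**Figure D5:**
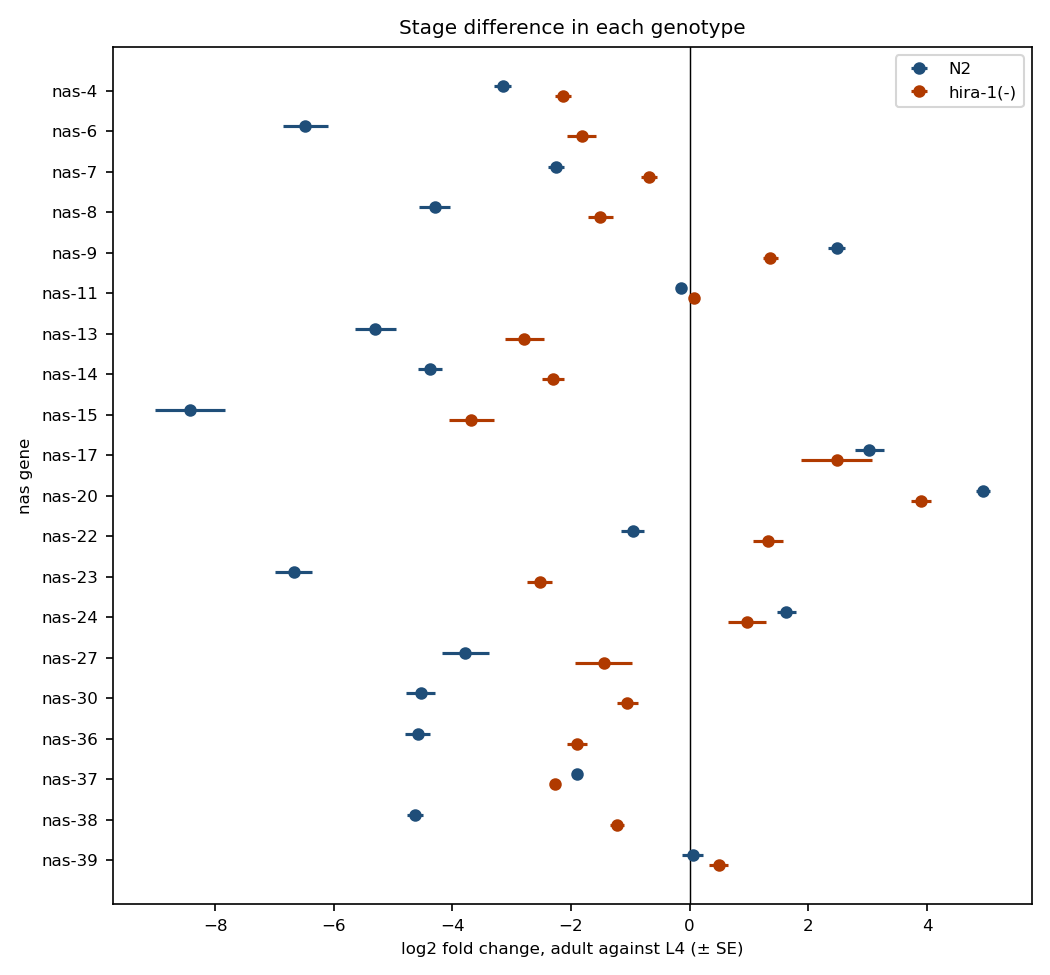
Log2 change from L4 to adult (x axis) in N2 and in hira-1(-) for the 20 nas genes described library by library (rows). The N2 points of nas-6, nas-15 and nas-23 lie between -8.42 and -6.48, and the hira-1(-) points of the same genes lie between -3.68 and -1.82.

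Whether the genotype effect itself differed between stages was tested as the adult effect minus the L4 effect. It passed in 20 of the 32 tested members, 16 with a positive and 4 with a negative difference, where 50.4% of all genes passed, 20.7% positive and 29.7% negative. The median difference was 1.02 over the nas genes and -0.07 over all genes. Without mutant adult replicate 1 these medians were 0.64 (34 members) and -0.07. With limma on log2 of FPKM plus 1 they were 0.43 and -0.006. For the molting genes it was 2.68 (SE 0.29, adjusted p = 2.2e-05) for nas-36, 3.41 (SE 0.19, adjusted p = 1.6e-08) for nas-38 and -0.38 (SE 0.10, adjusted p = 0.00839) for nas-37. Without N2 adult replicate 1 the nas-36 difference was 3.28 (adjusted p = 2.0e-06). The nas-37 call was lost without N2 L4 replicate 1 at -0.21 (adjusted p = 0.0862), without N2 adult replicate 1 at -0.31 (adjusted p = 0.0691) without mutant adult replicate 1 at -0.30 (adjusted p = 0.0512) and with limma on FPKM (-0.30, adjusted p = 0.0564). The grinder genes had differences of 4.65 for nas-6 (adjusted p = 1.7e-05) and 1.56 for nas-7 (adjusted p = 2.5e-05). Of the genes lower in the mutant at both stages, nas-20 had a difference of -1.04 (SE 0.26, adjusted p = 0.00491), a call lost without mutant L4 replicate 1 at -0.86 (adjusted p = 0.0785), and nas-17 and nas-24 did not pass, at -0.55 (SE 0.91, adjusted p = 0.65) and -0.67 (SE 0.37, adjusted p = 0.16). With limma on log2 of FPKM plus 1 the values were -1.32 for nas-17 (adjusted p = 2.9e-04) and -0.87 for nas-24 (adjusted p = 0.00219). The added 1 shrinks differences at low FPKM. Mean nas-17 levels were 0.49 (N2) and 0.05 (mutant) FPKM at L4, and 3.625 and 0.30 in adults. These limma values therefore do not show that the fold change differed between stages. nas-11 did not pass at 0.22 (SE 0.10, adjusted p = 0.0652), but did with library totals (0.30, adjusted p = 0.0193), no filter on low counts (0.25, adjusted p = 0.0256) and limma on FPKM (0.30, adjusted p = 0.0402), and without N2 L4 replicate 1 at 0.32 (adjusted p = 0.011), N2 L4 replicate 2 at 0.28 (adjusted p = 0.0254) and N2 adult replicate 1 at 0.41 (adjusted p = 0.00174).

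Of 4 listed other names of astacin genes, 3 were found in the deposited gene tables: hch-1, which digests the eggshell at hatching, dpy-31, which trims the procollagen SQT-3, and toh-1. The fourth name, toh-2, matched no row, and whether it is another name of 1 of these genes was not checked. hch-1 had 0 to 2 counts per library in 6 libraries and 1.89 and 1.81 CPM in the mutant adults, with 99 counts there against 2 in N2 adults, a ratio of 48.0 (exact 95% interval 12.9 to 401, counting error only). It entered the test through the mutant adults alone, so no p is given. The 5 embryo markers end-1, end-3, tbx-37, tbx-38 and pes-10 summed to 3.5 and 3.3 CPM in N2 adults and to 10.01 and 8.2 CPM in mutant adults. Of the 5, 3 were tested, and all 3 were higher in mutant adults. The others had too few counts, with means of 0.209 (N2) and 0.205 (mutant) CPM for end-1 and 0.182 and 0.205 for end-3. The part of these markers in the hch-1 result was not tested. dpy-31 passed at neither stage, at 0.04 (adjusted p = 0.736) and 0.12 (adjusted p = 0.357), while its substrate gene sqt-3 was at -1.14 (SE 0.11, adjusted p = 2.5e-05) at L4 and 2.95 (SE 0.14, adjusted p = 3.3e-07) in adults. toh-1 was higher in mutant adults (log2 change 0.68, SE 0.23, adjusted p = 0.0463), without passing at L4 (0.28, adjusted p = 0.337).

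Other genes of cuticle renewal were counted in the same way, and their counts stand against 22.6% lower and 35.5% higher at L4 and 26.5% lower and 28.6% higher in adults over all genes tested. Of 44 tested genes for molting and cuticle processing, 24 were lower and 13 higher in the mutant at L4, and 5 were lower and 25 higher in adults (54.5% lower at L4 and 56.8% higher in adults). mlt-10, a molting gene of the body surface, changed by -1.54 at L4 and 1.99 in adults, while the cathepsin gene cpz-1 changed by -0.96 and -1.32, and all 4 passed. The nuclear receptor gene nhr-23, which drives molting genes, was at 0.66 (SE 0.07, adjusted p = 4.6e-06) at L4 and -0.01 (SE 0.07, adjusted p = 0.928) in adults. Of 21 collagen genes for body shape, 13 were lower and 4 higher at L4, and 20 were higher and 1 (col-19) lower in adults, which is 61.9% lower at L4 and 95.2% higher in adults, with dpy-13 at -1.38 and 3.43. Of 25 other extracellular metalloprotease genes, 11 were lower and 6 higher at L4, and 4 were lower and 14 higher in adults, which is 44.0% lower at L4 and 56.0% higher in adults, with adt-1 at -0.91 and 2.37 and nep-22 at -1.14 and -0.65. Of 11 genes of the DBL-1 pathway, a TGF-beta pathway for body size, 3 were lower and 3 higher at L4, and 1 was lower and 4 higher in adults, with sma-3 at 0.83 and 0.44 and lon-1 at -0.44 and -0.84. The DBL-1 shares at L4, 27.3% lower and 27.3% higher, lay near those of all genes. All of these dpy-13, adt-1, nep-22, sma-3 and lon-1 values passed.

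The libraries held 26010300 to 31174600 estimated counts. hira-1 itself stood at 37.4 and 32.9 CPM in N2 L4, 23.7 and 25.3 in hira-1(-) L4, 108 and 109 in N2 adults and 40.7 and 40.03 in hira-1(-) adults, lower in hira-1(-) at both stages (-0.52 and -1.43). Other stage and tissue markers also differed between genotypes. The 5 oocyte markers summed to 181.5 to 228.1 CPM in N2 L4 and to 794.6 to 833.0 CPM in hira-1(-) L4, all 5 higher, and the 4 adult markers (vit-2, vit-5, vit-6 and col-19) summed to 1003.7 to 1543.5 CPM in N2 L4 and 454.2 to 531.2 CPM in hira-1(-) L4, all 4 lower, and to 29724.7 to 35348.7 CPM in N2 adults and to 13833.0 to 16535.8 CPM in hira-1(-) adults, 3 of 4 lower. The 5 intestine markers (ges-1, elt-2, ifb-2, act-5 and cpr-6) summed at L4 to 2848.5 and 2983.1 CPM for N2 against 2151.1 and 2156.5 for the mutant, 4 lower and 1 higher, and in adults to 1796.6 and 1815.0 against 1313.7 and 1408.3, 2 lower and 1 higher. The 5 sperm markers summed to 90.6 and 101.9 CPM in N2 adults and 41.5 and 44.96 in hira-1(-) adults, 3 lower, and at L4 2 were higher and 2 lower. None of these markers was at 0 in the groups compared, and their part in the nas results was not tested. The labels give the stage and no age in hours, so a difference in age within a stage and a difference at equal age cannot be told apart. In assembly WBcel235, nas-4, nas-22 and nas-39 overlap a protein-coding gene of the same strand, and nas-7, nas-8, nas-10, nas-11, nas-12, nas-13, nas-25, nas-29, nas-33 and nas-37 overlap one of the opposite strand. No source used here states whether reads were counted by strand, and reads of such pairs may be shared.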

How the data were processed

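RNA-seq tables of N2 and hira-1(-) were used as the authors deposited them. Per the submitters' processing notes, Bowtie 1.0.1, RSEM 1.2.15, SAMtools 0.1.19 and genome build ce10 were used. The first deposited table holds estimated counts per gene, which need not be whole. The second deposited table holds FPKM on a log2 scale after adding 1, and it was turned back to FPKM for levels between genes. Of 18 columns, 8 matched the labels of 1 sample each (1 name has a digit in place of a letter), and 10 columns were not used. L1 and the third replicates were therefore not analysed here. Names, order and overlaps came from assembly WBcel235 (44080 of 45461 rows matched by sequence name), and no coordinates are given.

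The quasi-likelihood test of edgeR 4.0.16 (R 4.3.3) was run on the rounded estimated counts, with TMM scaling, the default expression filter (minimum count 10, minimum total 15), robust dispersion and 4 group means. The spread was pooled over 8 libraries (4 residual degrees of freedom), with a common biological coefficient of variation of 6.26%. Every adjusted p in the text is from this test with Benjamini-Hochberg adjustment over 16770 genes, unless another tool, another setting or an omitted library is named. Fits without 1 library, which leave 1 library in a group, tested 17115 to 17190 genes. The fit with no filter tested 22951 genes. Fits of only the groups compared tested 16043 genes at L4 and 15550 in adults. Between replicates, chi-square divided by its degrees of freedom was above counting noise in each group. It was 16.0 in N2 L4, 19.3 in N2 adults, 6.04 in hira-1(-) L4 and 5.77 in hira-1(-) adults. N2 replicates thus differed more than mutant ones, while the test used a spread pooled over the groups. A level of 3 counts per library was 0.0991 to 0.125 CPM, and intervals and such levels cover counting error only.

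The members and gene lists were chosen with earlier results of these data known. Values in every library are given for members that passed in a genotype comparison with a group mean of at least 5 CPM, and for nas-6, nas-7, nas-36, nas-37, nas-38 and nas-39. nas-3 and nas-21 were added after their values were seen. From each list, members with the smallest adjusted p are named, and which of them are printed was chosen after their values were seen. The alternatives tried were library totals, RLE scaling, no filter, DESeq2 1.42.0, only the groups compared, a replicate block, limma 3.58.1, and leaving out each library. limma was run on log2 of FPKM plus 1, a scale that shrinks differences of genes at low FPKM, so its values are not plain log2 fold changes.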

Additional observations from a re-analysis of the deposited data

Results flagged for a closer look

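The genotype effect differed between stages (adult effect minus L4 effect, log2 scale, edgeR's quasi-likelihood test, adjusted p below 0.05) for 20 nas genes. The values already given were 4.65 for nas-6, 1.56 for nas-7, -1.04 for nas-20, 2.68 for nas-36, -0.38 for nas-37 and 3.41 for nas-38.

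The difference was positive for nas-4 (1.02, adjusted p = 0.00126), nas-5 (1.02, adjusted p = 0.0451), nas-8 (2.79, adjusted p = 4.6e-05), nas-12 (1.56, adjusted p = 0.0184), nas-13 (2.51, adjusted p = 0.00406) and nas-14 (2.08, adjusted p = 1.3e-04). It was also positive for nas-15 (4.74, adjusted p = 0.0128), nas-22 (2.29, adjusted p = 6.2e-05), nas-23 (4.15, adjusted p = 1.6e-05), nas-27 (2.33, adjusted p = 0.0223), nas-29 (2.59, adjusted p = 1.1e-04) and nas-30 (3.48, adjusted p = 2.0e-06). It was negative for nas-3 (-5.32, adjusted p = 4.1e-05) and nas-9 (-1.12, adjusted p = 3.7e-04).

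Single libraries or another tool decided some of these. The nas-5 call was lost without N2 L4 replicate 1 at 0.79 (adjusted p = 0.139), mutant L4 replicate 1 at 0.89 (adjusted p = 0.127), mutant L4 replicate 2 at 1.16 (adjusted p = 0.0567), N2 adult replicate 2 at 0.78 (adjusted p = 0.196) and mutant adult replicate 1 at 0.77 (adjusted p = 0.161), and with DESeq2 (0.96, adjusted p = 0.173) and limma on FPKM (0.51, adjusted p = 0.104). The nas-12 call was lost without N2 adult replicate 1 at 1.40 (adjusted p = 0.0633) and mutant adult replicate 1 at 1.21 (adjusted p = 0.129), and with DESeq2 (1.51, adjusted p = 0.0654). nas-15 lost its call without N2 adult replicate 1 at 5.21 (adjusted p = 0.0574) and replicate 2 at 4.37 (adjusted p = 0.0773). nas-27 lost its call without N2 adult replicate 2 at 2.06 (adjusted p = 0.102) and mutant adult replicate 2 at 1.77 (adjusted p = 0.157), and with no filter on low counts (2.36, adjusted p = 0.0547). nas-20 lost its call without mutant L4 replicate 1 at -0.86 (adjusted p = 0.0785), and nas-37 lost its call without N2 L4 replicate 1 at -0.21 (adjusted p = 0.0862), N2 adult replicate 1 at -0.31 (adjusted p = 0.0691) and mutant adult replicate 1 at -0.30 (adjusted p = 0.0512), and with limma on FPKM (-0.30, adjusted p = 0.0564). Without N2 L4 replicate 1 or 2 the nas-3 difference was -4.68 (adjusted p = 4.5e-05) or -6.20 (adjusted p = 1.0e-05), without N2 adult replicate 2 that of nas-23 was 5.00 (adjusted p = 3.0e-04), and without N2 adult replicate 1 that of nas-36 was 3.28 (adjusted p = 2.0e-06).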

How the results depend on the processing

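The number of nas genes past the threshold stayed within 1.5 times the reported number under every alternative run: 19 to 25 at L4 (reported 24), 24 to 28 in adults (24), 22 to 28 from L4 to adult in N2 (26), 21 to 24 in hira-1(-) (24) and 18 to 21 for the difference between stages (20). Leaving out 1 library gave 18 to 25, 23 to 28, 22 to 27, 19 to 24 and 17 to 22. With the replicate number as a block the counts were 24, 25, 26, 24 and 20, and 1 single-gene call changed (nas-13 in adults, 1.27, adjusted p = 0.0389). The labels do not say that a number pairs libraries, and same-numbered libraries deviated together with correlations of -0.003 to 0.066. Such correlations over all genes cannot exclude pairing that affects some genes, so whether libraries share more than a number is not known.

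Single-gene results were compared for both genotype comparisons of the 32 tested members, for both stage comparisons of the 20 members named by the rule for values in every library, and for the difference between stages of those and of each other member that passed it. Of these 128 results, DESeq2 lost 7 calls, library totals gained 7 and lost 1, no filter gained 4 and lost 2, limma on FPKM gained 6 and lost 4, and RLE scaling changed none of the 128. Over all 32 tested members, RLE scaling moved the number passing from 26 to 27 from L4 to adult in N2 and from 24 to 23 in hira-1(-), and DESeq2, run over 36 members, passed 22 in N2. Over 1024 fits of a result without 1 library, 47 calls were lost and 22 gained. Direction turned only for values that did not pass. With library totals and with limma on FPKM these were nas-11 from L4 to adult in the mutant (-0.017 and -0.0022), nas-27 in adults (0.088 and 0.018), nas-32 in adults (0.030 and 0.013), nas-37 at L4 (0.014 and 0.018) and nas-39 from L4 to adult in N2 (-0.11 and -0.070). Without 1 library, nas-27 in adults ranged from -0.68 to 0.29 (0.11 without N2 adult replicate 1 and 0.29 without mutant adult replicate 1), and nas-39 in N2 ranged from -0.31 to 0.32 (-0.095 without N2 L4 replicate 2 and -0.31 without N2 adult replicate 1). The cause was not tested. With 2 libraries per group, small differences and genes under about 1 CPM have wide errors.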
